A study of Mus musculus with 6 samples.

Results

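The p53 pathway genes examined here are 10 genes, Trp53, Cdkn1a, Cdkn2a, Mdm2, Ccng1, Bax, Bbc3, Phlda3, Zmat3 and Trp53inp1, out of 22377 genes in the count table. They were chosen by symbol as p53 itself, the gene of its activator Arf, its inhibitor Mdm2 and 7 transcriptional targets of p53. RNA of tumor-associated macrophages (TAMs) was sequenced in 6 libraries, 3 labelled wt and 3 labelled knockdown. The TAMs had been sorted as CD45+ CD11b+ F4/80+ cells from subcutaneous tumors of Lewis lung carcinoma (LLC), a mouse carcinoma line, grown in young male and female Npm1+/+ and Npm1+/- mice. That description comes from the methods, whereas the labels give no genotype, strain, age or sex, name tumor tissue as the material and describe a small RNA protocol. In the Npm1+/- mice 1 allele of Npm1 is lost in all cells of the host, whereas the LLC cells carry their own Npm1. The labels number the libraries as biosamples, and whether each came from a separate mouse is not stated there. A legend in the paper gives fewer mice per group than there are libraries, so libraries of a group may share a mouse, and the SDs, SEs and p-values below measure only the spread between libraries and may be too small.

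p53 is a transcription factor that is made all the time and destroyed nearly as fast, because Mdm2, a ubiquitin ligase, marks it for the proteasome. DNA damage, oncogene activity or a disturbed nucleolus releases p53 from Mdm2, and p53 then switches on genes that halt the cell cycle (Cdkn1a), kill the cell (Bax, Bbc3) or feed back on p53 (Mdm2, Ccng1). Arf, made from the Cdkn2a gene, binds Mdm2, and nucleophosmin, the product of Npm1, holds Arf in the nucleolus and can itself bind Mdm2. In macrophages, Cdkn1a is also induced by differentiation and by inflammatory signals without p53.

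Of the genes that carry a p53 response element close to a RefSeq transcription start, 4 are shown. These genes differ in level and in the estimate of the group difference, which was not called for any of them over the 6 libraries. The windows run from 250 bases before to 50 bases after the RefSeq start in GRCm38.p6, and 8 of the 10 genes matched by symbol, with 12 windows. Zmat3 and Trp53inp1 did not. The search was for the p53 response element by name, as 2 adjoining decamers that keep the 4 core C and G bases, with at most 3 mismatches in 20 bases. The consensus is its own reverse complement, so that the search covers both strands. Capitals mark the 20 bases of the element, and 5 bases on each side are in lower case.
Cdkn1a, chr17:29090923-29090952, plus strand: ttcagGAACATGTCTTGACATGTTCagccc
Ccng1, chr11:40755457-40755486, minus strand: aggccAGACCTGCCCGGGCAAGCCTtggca
Bbc3, chr7:16309481-16309510, plus strand: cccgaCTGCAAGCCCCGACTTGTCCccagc
Trp53, chr11:69580279-69580308, plus strand: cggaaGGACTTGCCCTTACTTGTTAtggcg
The elements of Cdkn1a and Ccng1 had 1 mismatch each and began at -51 and -195 from the start. Those of Bbc3 and Trp53 had 3 mismatches each and began at -97 and -75. The RefSeq start used for Bbc3 lies inside the GENCODE span of that gene (chr7:16308393-16318205), and so does its element. The element of Cdkn1a lies just before the upstream end of its GENCODE span (chr17:29090976-29100727). Each distance is from the start of the window that held the element, and a gene may have other starts. Elements of this kind were in 1.38% of all 32851 windows, or 1.63% of 27025 genes. The genes were listed for known parts in the p53 pathway, most of them as p53 targets, so the 4 of 8 here is a description. A match to these letters does not show binding, and elements outside the windows, such as in introns, were not searched.

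Total counts were 36550775 to 38147320 per library, and SE below is the standard error of a log2 fold change. Npm1, the targeted gene, stood at 142, 380.2 and 381 CPM (counts scaled to each library's TMM-adjusted total, a level not corrected for gene length) in the libraries labelled wt and at 441, 499 and 343 in those labelled knockdown. The knockdown minus wt difference was 0.51 on the log2 scale (SE 0.36, adjusted p = 0.436, edgeR), so the estimate for Npm1 mRNA was not lower under the knockdown label, and every direction below is that between labels. The library labelled wt replicate 1 stood apart, at -108.5 on a first principal component that held 68.0% of the variance, with the others from -4.54 to 52.0. Marker genes of cell types, tested alike, differed in estimate between the labels, and none was called. Summed CPM of 12 macrophage markers (mostly Lyz2, also Itgam and Adgre1) was 16500 to 22020 in wt and 9852 to 16340 in knockdown libraries, with 12 of 12 lower in estimate. For 9 T and NK cell markers, with Cd3e, Cd3d and Cd8a present in every library, it was 42.2 to 106 and 88.1 to 249.9, with 9 of 9 higher. For 10 fibroblast markers it was 26.4 to 515 and 376 to 745, with 10 of 10 higher, and was mostly Col3a1 in every library, with Col1a1 and Col1a2 at or below 5.52 CPM. For 7 epithelial or carcinoma markers it was 36.1 to 138 and 129 to 192, mostly Krt8 except in wt replicate 1, where Cdh1 led, with Krt19 and Cldn4 at 0 in 5 libraries each. Only 4 of these 7 were tested, with 2 higher in estimate (Krt8 and Krt18) and 2 lower (Krt7 and Cdh1). In such bulk samples, fewer cells of a type and less RNA per cell cannot be told apart.

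With the levels taken per length (FPKM), Cdkn1a was the most abundant of the 10 genes and Cdkn2a the least. Cdkn1a, the p21 inhibitor of cyclin-dependent kinases, averaged 313 ± 52.7 FPKM (SD, n = 6), above 98.29% of the 13884 genes tested. Bax, a pore former of the mitochondrial membrane, followed at 95.5 ± 5.31 FPKM. Both stood clear of their neighbours, since the lowest Cdkn1a value of 225 FPKM exceeded the highest Bax value of 105, and the lowest Bax value of 89.9 exceeded the highest Mdm2 value of 55.7. Mdm2 averaged 34.2 FPKM and Trp53 22.2 FPKM, with overlapping ranges and Mdm2 above Trp53 in 5 of 6 libraries.
Ccng1 (cyclin G1, which recruits a phosphatase to Mdm2) averaged 15.2 FPKM, Bbc3 (Puma, a BH3-only killer protein) 11.7 and Trp53inp1 (a stress protein that acts on p53 and in autophagy) 8.02, each overlapping the next. Phlda3, a competitor of Akt for membrane lipids, averaged 2.60 FPKM and Zmat3, an RNA-binding splicing regulator, 1.39. The range of Phlda3 overlapped those of Trp53inp1 and Zmat3, yet the order of these 3 held within each of the 6 libraries.

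**Figure D1:**
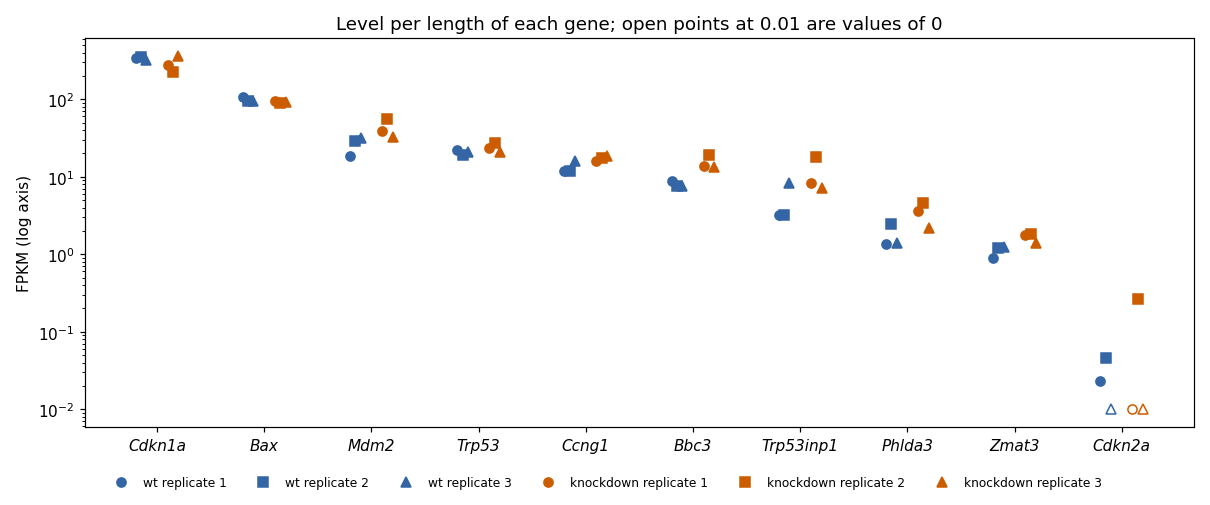
FPKM (log axis) of the 10 genes in each of the 6 libraries, ordered by mean level, with wt libraries in blue, knockdown libraries in orange and marker shapes for the replicate number. Cdkn1a lies between 225 and 366 FPKM in every library, and Cdkn2a is at or below 0.265, with 3 libraries at 0 drawn as open points.

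Cdkn2a encodes both the kinase inhibitor Ink4a and, from another first exon, Arf, and a count per gene does not separate them. It had 1, 2 and 0 counts in the libraries labelled wt and 0, 11 and 0 in those labelled knockdown. Only knockdown replicate 2 exceeded the 3 counts that a count of 0 allows, a limit of 0.0716 to 0.0846 CPM for counting error only. Cdkn2a did not pass the filter on low counts and was not tested. Cdkn2a mRNA was thus close to the limit of detection at this depth, and no fold is given. Knockdown replicate 2 also had the highest summed T and NK cell markers (249.9 CPM), whose part in these 11 counts was not tested.

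The comparison asked whether the p53 pathway differs between TAMs labelled knockdown and wt. None of the 9 genes tested had an adjusted p under 0.05 (edgeR, quasi-likelihood, with p adjusted after Benjamini and Hochberg over 13884 genes), and neither had any other gene (0%). At an unadjusted p under 0.05 there were 4 of the 9, Bbc3, Mdm2, Zmat3 and Trp53inp1, all with the higher estimate in knockdown libraries, where 6.9% of all genes tested passed with this direction, 8.31% with the opposite one and 15.2% in all. This count rested on single libraries, since it was 1 of the 9 without wt replicate 1 or without knockdown replicate 2 and 2 without knockdown replicate 1. DESeq2 called 0 of the 9 and 36 genes (0.263%) over the 6 libraries. The estimates were above 0 for 7 of the 9 genes, against 52.1% of all genes tested, and their median log2 fold change was 0.44 against 0.022. Values of the groups did not overlap for Bbc3, Mdm2 and Zmat3, with the knockdown libraries above, as for 13.3% of all genes tested. None of the 9 was apart in the other direction, as 12.6% of all genes were (25.9% in either direction).

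**Figure D2:**
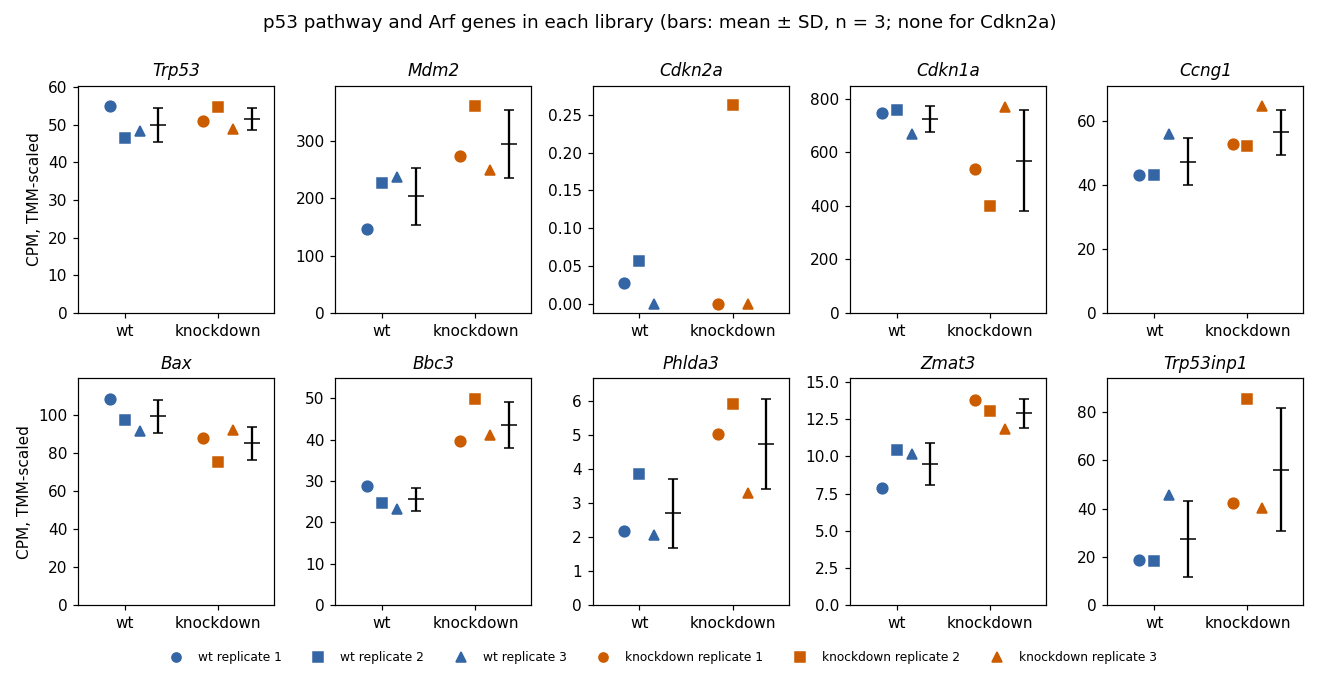
TMM-scaled CPM of each gene in the 3 wt (blue) and 3 knockdown (orange) libraries, with marker shapes for the replicate number and the mean ± SD (n = 3) as a bar, left out for Cdkn2a. The groups are apart for Bbc3, Mdm2 and Zmat3 and overlap for the other genes, and knockdown replicate 2 is the highest library for Mdm2, Bbc3, Phlda3 and Trp53inp1.

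Trp53, the gene of p53 itself (NCBI Gene 22059, chr11:69580359-69591873 on the plus strand of GRCm38, with no overlapping gene in GENCODE), was the least different of the 9. It stood at 54.9, 46.5 and 48.3 CPM in wt and at 51.0, 54.6 and 48.9 CPM in knockdown libraries, 49.9 ± 4.44 against 51.5 ± 2.87 (SD, n = 3 each). The 2 groups overlapped fully, and the log2 fold change was 0.047 with a 95% interval of -0.23 to 0.33 (adjusted p = 0.834, edgeR). A processed pseudogene, Trp53-ps, is annotated elsewhere and has no row in the count table, so reads shared with it are uncertain. The p53 protein, through which the pathway is mainly controlled, was not measured here.

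Mdm2 (NCBI Gene 17246, chr10:117688875-117710758, minus strand) stood at 146, 227 and 236 CPM in wt and at 274, 360.4 and 249 CPM in knockdown libraries. Each knockdown library exceeded each wt library, the nearest being knockdown replicate 3 and wt replicate 3. A two-sided exact permutation test gave p = 0.1, the least possible with 3 libraries a group. Groups that do not overlap always give that value, as Bbc3 and Zmat3 did too. The estimated log2 fold change was 0.53 (SE 0.22, 95% interval 0.017 to 1.05, adjusted p = 0.328, edgeR). It became 0.34 without wt replicate 1 and 0.36 without knockdown replicate 2.
The number of Mdm2 counts per Trp53 count, a ratio within a library that needs no scaling, was 2.67, 4.89 and 4.90 in wt and 5.37, 6.60 and 5.09 in knockdown libraries. The groups were apart, by little except for wt replicate 1. The summed CPM of 27 cell cycle genes was ordered nearly as Mdm2, at 263, 724 and 612 in wt and 896, 1035 and 707 in knockdown libraries. Its part in the Mdm2 difference was not tested.

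Bbc3 (NCBI Gene 170770, chr7:16308393-16318205, plus strand), whose product Puma neutralises the survival proteins of the Bcl2 family, had the smallest p of the 9 and rank 14 by p among all 13884 genes tested. It stood at 28.8, 24.6 and 23.3 CPM in wt and at 39.6, 49.9 and 41.2 CPM in knockdown libraries, 25.6 ± 2.85 against 43.6 ± 5.54 (SD, n = 3 each). The lowest knockdown library (39.6 CPM) was above the highest wt library (28.8 CPM). The wt libraries lay close together, whereas the knockdown libraries spread about as widely as the gap between the groups. The log2 fold change was 0.77, a 1.70-fold difference (SE 0.15, 95% interval 0.42 to 1.12, unadjusted p = 0.00113, adjusted p = 0.328, edgeR), and it lay between 0.65 and 0.86 with any single library left out. With DESeq2 its adjusted p was 0.0587 over the 6 libraries. With DESeq2 on the 4 libraries without wt replicate 1 and knockdown replicate 3, where 10.6% of genes were called, Bbc3 was called (log2 fold change 0.86, adjusted p = 0.00168). That fit left out wt replicate 1, the wt library nearest to the knockdown libraries for Bbc3, so the call cannot be separated from that choice. With edgeR on the same 4 libraries Bbc3 was not called (log2 fold change 0.90, adjusted p = 0.101).
The macrophage, T and NK cell, fibroblast and cell cycle sums were not tested for their part in the Bbc3 difference. Within each of these lists all genes tested had estimates on the same side, and none was called. 

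Bax (NCBI Gene 12028, chr7:45461697-45466898, minus strand), the other death gene, did not share that pattern. It stood at 108, 97.2 and 91.5 CPM in wt and at 87.8, 75.2 and 91.9 CPM in knockdown libraries, with a log2 fold change of -0.22 (95% interval -0.52 to 0.077, adjusted p = 0.372, edgeR). The groups overlapped through knockdown replicate 3. Bax shares 192 exon bases with the annotated gene Gm45808 on the same strand, so its counts there are uncertain. Counts of Bbc3 per Bax count, a ratio chosen after the values were seen, were 0.265, 0.254 and 0.255 in wt and 0.451, 0.664 and 0.448 in knockdown libraries. The 3 wt libraries were nearly alike in this ratio, including wt replicate 1, and all 3 knockdown libraries stood above them.

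**Figure D3:**
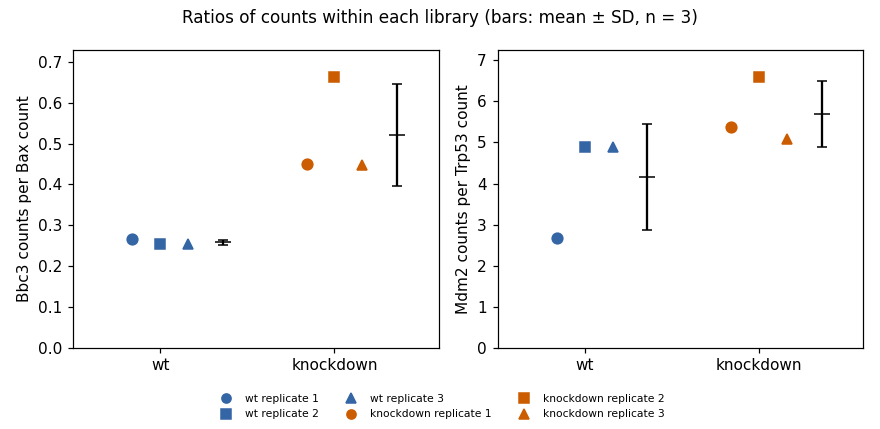
Counts of Bbc3 per Bax count (left) and of Mdm2 per Trp53 count (right) within each library, for wt (blue) and knockdown (orange), with the mean ± SD (n = 3) as a bar. The Bbc3 to Bax ratio is 0.258 ± 0.00657 in wt and 0.521 ± 0.124 in knockdown libraries, and the Mdm2 to Trp53 ratio is 4.15 ± 1.29 and 5.69 ± 0.804.

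Cdkn1a (NCBI Gene 12575, chr17:29090976-29100727, plus strand), the best known p53 target, had an estimate opposite to that of Bbc3 and Mdm2. It stood at 746, 755 and 667 CPM in wt and at 536, 400.1 and 769 CPM in knockdown libraries, 723 ± 48.7 against 568 ± 187 (SD, n = 3 each). Knockdown replicates 1 and 2 were below every wt library, whereas knockdown replicate 3 was above every one (p = 0.4, two-sided exact permutation test). Its log2 fold change was -0.35 (SE 0.23, 95% interval -0.89 to 0.19, adjusted p = 0.416, edgeR), -0.63 without knockdown replicate 3 and -0.15 without knockdown replicate 2. With DESeq2 on the 4 libraries without wt replicate 1 and knockdown replicate 3 it was called, at -0.65 (adjusted p = 0.0121). In that fit 10.6% of genes were called. It left out the only knockdown library above every wt library, so the call cannot be separated from that choice of libraries.
The 5 genes tested whose centred log2 CPM came closest to that of Cdkn1a over the 6 libraries were Ier3, Cmklr1, Itgam, Rin2 and B4galt6, with root mean square differences of 0.0758 to 0.0770. Ier3, the nearest, is among the immediate early and stress genes of the closing observations. It stood at 1039.5, 974.3 and 844.6 CPM in wt and at 741.6, 519.1 and 919.7 CPM in knockdown libraries. Itgam encodes CD11b, on which the cells were sorted, and stood at 2877, 2975 and 2708 CPM in wt and at 1945, 1492 and 2660.2 CPM in knockdown libraries. The macrophage marker sum likewise was lowest in knockdown replicates 1 and 2, at 12640 and 9852 CPM. In knockdown replicate 3, where Cdkn1a was highest, that sum was 16340 CPM, close to the lowest wt library (16500 CPM in wt replicate 3). The part of the macrophage markers in the Cdkn1a values was not tested. The exons of Cdkn1a share 273 bases with an annotated transcript on the other strand, and whether strand was used in counting is not given in the sources used here.

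Trp53inp1 (NCBI Gene 60599, chr4:11156431-11174379, plus strand) had the largest estimate of the 9 and also the largest spread. It stood at 18.6, 18.4 and 45.7 CPM in wt and at 42.6, 85.7 and 40.5 CPM in knockdown libraries. The groups overlapped through wt replicate 3, and the estimate was 1.03 on the log2 scale (SE 0.44, 95% interval 0.0097 to 2.05, adjusted p = 0.328, edgeR), 0.58 without knockdown replicate 2 and 1.58 without wt replicate 3. The summed T and NK cell markers had nearly the same order over the libraries, at 42.2, 44.6 and 106 CPM in wt and 102, 249.9 and 88.1 CPM in knockdown libraries. Wt replicate 3 was high and knockdown replicate 2 highest in both. The part of these cells in the Trp53inp1 values was not tested.

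**Figure D4:**
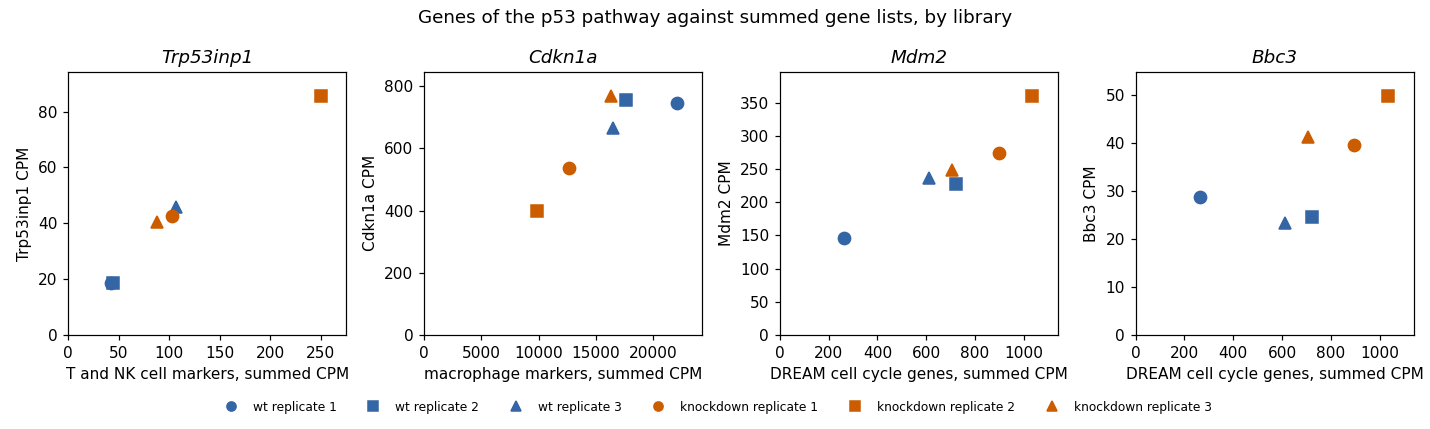
CPM of Trp53inp1, Cdkn1a, Mdm2 and Bbc3 (vertical axes) against summed CPM of a gene list (horizontal axes) in each of the 6 libraries, wt in blue and knockdown in orange. Trp53inp1 is lowest in the wt libraries with the fewest T and NK cell transcripts and highest in knockdown replicate 2. Cdkn1a is lowest where macrophage markers are lowest. It is highest in knockdown replicate 3, whose macrophage sum is close to that of wt replicate 3. Bbc3 and Mdm2 are plotted against the cell cycle sums, which are 263 to 724 CPM in wt and 707 to 1035 CPM in knockdown libraries.

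Zmat3 (NCBI Gene 22401, chr3:32334792-32366014, minus strand) stood at 7.84, 10.5 and 10.1 CPM in wt and at 13.8, 13.1 and 11.8 CPM in knockdown libraries. The groups were apart, with a log2 fold change of 0.44 (SE 0.19, 95% interval 0.012 to 0.88, adjusted p = 0.328, edgeR). Phlda3 (NCBI Gene 27280, chr1:135766119-135769136, plus strand) stood at 2.17, 3.86 and 2.06 CPM in wt and at 5.01, 5.90 and 3.28 CPM in knockdown libraries. Wt replicate 2 overlapped knockdown replicate 3, and the estimate was 0.81 on the log2 scale (SE 0.36, adjusted p = 0.329, edgeR), from counts of 77 to 247 per library. Ccng1 (NCBI Gene 12450, chr11:40748552-40755311, minus strand) stood at 43.0, 42.9 and 55.7 CPM in wt and at 52.7, 52.0 and 64.5 CPM in knockdown libraries, with overlap through wt replicate 3 and a log2 fold change of 0.26 (95% interval -0.11 to 0.62, adjusted p = 0.389, edgeR). That estimate for Ccng1 was 0.14 without knockdown replicate 3 and 0.082 without both it and wt replicate 1. Among these genes, the paired decamers near a RefSeq start were thus found in those with a positive (Bbc3, Ccng1), a near-zero (Trp53) and a negative (Cdkn1a) estimate.

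**Figure D5:**
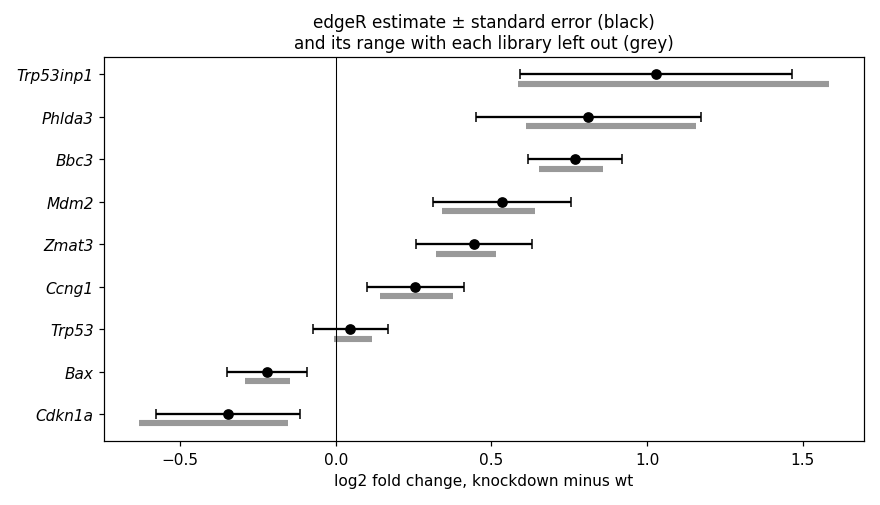
Log2 fold changes (knockdown minus wt) of the 9 genes tested, with the edgeR estimate and its standard error in black and the range of the estimates with each of the 6 libraries left out in grey. The estimates run from -0.35 for Cdkn1a to 1.03 for Trp53inp1, and the grey range crosses 0 only for Trp53.

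A wider list of 45 p53 targets outside these genes did not lean to either side. Of 41 tested, 23 had a higher and 18 a lower estimate in knockdown libraries, 5 in each direction had an unadjusted p under 0.05 and 0 were called, with a median log2 fold change of 0.065. Over all genes tested, 52.1% had a higher estimate, and 6.9% higher and 8.31% lower had such a p. Slc19a2, a thiamine transporter, stood at 13.5 ± 2.93 CPM in wt and 23.3 ± 4.93 in knockdown libraries (log2 fold change 0.78, adjusted p = 0.328, edgeR), and Plk2, a polo-like kinase, at 451 ± 31.9 and 601 ± 45.3 (0.41, adjusted p = 0.328). On the other side, Apaf1, the scaffold of the apoptosome, stood at 159 ± 2.72 and 118 ± 11.4 CPM (-0.43, adjusted p = 0.328), and Ddit4, an inhibitor of mTORC1, at 214 ± 39.5 and 134 ± 25.2 (-0.67, adjusted p = 0.328). Each mean is of 3 libraries with its SD.

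Among 24 regulators of p53 and Mdm2, all tested, 19 had a higher estimate, 6 of them with an unadjusted p under 0.05 (52.1% and 6.9% of all genes tested), and 0 were called. The median log2 fold change of the list was 0.12, against 0.022 over all genes. The deacetylase Sirt1, which acts on p53, stood at 25.0 ± 3.75 CPM in wt and 47.4 ± 15.4 in knockdown libraries (SD, n = 3 each), a difference of 0.92 on the log2 scale (adjusted p = 0.328, edgeR). Atr, a damage kinase upstream of p53, stood at 17.1 ± 7.21 and 30.9 ± 2.02 CPM (0.85, adjusted p = 0.328). Hipk2, a kinase that activates p53, stood at 49.5 ± 1.02 and 41.2 ± 3.80 CPM (-0.27, adjusted p = 0.329). Cul9, a cytoplasmic p53 partner, stood at 7.69 and 5.46 CPM (-0.50, adjusted p = 0.406).

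Cdkn1a holds cells out of the cycle by keeping the DREAM repressor complex on cell cycle genes. Of 27 such genes, all tested, 27 had a higher estimate in knockdown libraries, with a median log2 fold change of 0.80 against 0.022 over all genes, 3 had an unadjusted p under 0.05 and 0 were called. Of all genes tested, 52.1% had a higher estimate and 6.9% a higher estimate with such a p. Ccne2, a cyclin of S phase entry, stood at 0.787, 2.71 and 2.65 CPM in wt and at 4.81, 6.64 and 3.56 in knockdown libraries (log2 fold change 1.29, adjusted p = 0.328, edgeR). Mcm5, part of the replicative helicase, stood at 22.3, 36.9 and 31.4 and at 43.7, 54.2 and 35.0 CPM (0.55, adjusted p = 0.328). For Ccne2 the groups were apart, and for Mcm5 wt replicate 2 exceeded knockdown replicate 3. The T cell and fibroblast marker sums given above, which were likewise lowest in wt replicate 1, and the Krt8 level were not tested for their part in this list.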

How the data were processed

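RNA of 6 libraries, 3 labelled wt and 3 labelled knockdown, was analysed. The authors deposited raw read counts (whole numbers) for each gene together with FPKM, and a check of the values showed that each FPKM follows from the count, a fixed length of the gene and the total counts of that library. The submitters' processing notes name mm10, and the aligner, the counting tool and the strand setting are not given in the sources used here. No measured column was left unmapped (0).

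Counts were fitted with edgeR 4.0.16 in R 4.3.3 (filterByExpr, TMM factors, glmQLFit, glmQLFTest, Benjamini-Hochberg adjustment over 13884 genes, threshold 0.05). Group directions are knockdown minus wt. The SE of an estimate was taken as its size over the root of the F statistic. Alternatives used DESeq2 1.42.0, limma 3.58.1 on log2 FPKM plus 1 or 0.1, other scalings and filters, left-out libraries and the replicate number as a block. Scripts were tested on simulated data. Replicate pairs differed beyond sampling noise (chi-square per gene 34.3 to 146.3). p-values measure the spread between these samples.

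Genes, lists and alternatives were chosen with earlier results of these data known. Named were the 10 genes, Npm1, from each pathway list the 2 genes of smallest p per direction, and the 5 genes nearest to Cdkn1a in centred log2 CPM (prior count 2). Marker lists of cell types not given with the results stand in the closing observations. Ratios of counts and scaling by totals alone were chosen after the values were seen. Positions are from GENCODE on GRCm38, and promoter windows from RefSeq on GRCm38.p6.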

Additional observations from a re-analysis of the deposited data

How the results depend on the processing

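No gene was called in any of the 15 other edgeR and limma settings. DESeq2 called 36 genes over 6 libraries and 1283 (10.6% of genes) without wt replicate 1 and knockdown replicate 3. There it called 2 of the 9 p53 pathway genes, Bbc3 and Cdkn1a. Of the 7 pathway lists, with 142 distinct genes tested by edgeR, it called 21 genes. The median log2 fold change of the 9 genes, 0.44, became 0.56 with limma on log2 FPKM plus 0.1, 0.34 in that DESeq2 fit and 0.60 with library totals alone, a scaling chosen after the data were seen that moved the median of all genes to 0.17. With 1 library left out it ranged from 0.32 to 0.52, the number of the 9 at an unadjusted p under 0.05 from 1 (without wt replicate 1 or knockdown replicate 2) to 5, and Trp53 from -0.0069 (without wt replicate 2) and -0.0055 (without knockdown replicate 2) to 0.12. Over the 11 other settings Trp53 ranged from 0.023 to 0.20 (the latter with library totals alone, and 0.15 in edgeR without wt replicate 1 and knockdown replicate 3), Ccng1 from 0.047 to 0.41, and Bax was nearest to 0 at -0.072 with limma on log2 FPKM plus 1. The other 8 genes kept their sign in all 17 settings. The replicate numbers did not pair the libraries (correlations of deviations -0.241, 0.0605 and -0.337), and a fit with the replicate block called 0 genes, gave a median of 0.45 and changed no call. No group had the 4 libraries that a test for single outlying libraries needs.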

Other observations

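Other genes around the p53 pathway were compared in the same way, and 0 of the genes in these lists were called by edgeR's quasi-likelihood test (at an unadjusted p under 0.05 there were 5 of 20 regulators of the Ink4a-Arf gene, 2 of 9 p53 family members and partners, 0 of 8 kinase inhibitors and pocket proteins and 2 of 17 Bcl2 family genes, against 15.2% of all genes tested). Among the regulators of the Ink4a-Arf gene, the Polycomb genes Suz12 and Rnf2, whose products keep this gene silent, stood at 57.4 ± 15.5 and 43.6 ± 10.2 CPM in wt and at 83.6 ± 8.51 and 61.5 ± 4.83 in knockdown libraries (SD, n = 3 each, log2 fold changes 0.54 and 0.50). Id1 and the H3K27 demethylase Kdm6b stood lower, at 25.1 against 16.8 CPM and at 633 against 479 CPM (-0.58 and -0.40).

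In the Bcl2 family, the survival gene Bcl2 stood at 14.7, 13.4 and 23.7 CPM in wt and at 30.7, 47.3 and 24.9 CPM in knockdown libraries (log2 fold change 0.99, standard error 0.30, adjusted p = 0.328, edgeR), with groups apart. Knockdown replicate 2 was highest for Bcl2, as for Trp53inp1 and the summed T and NK cell markers. Wt replicate 3 was below every knockdown library for Bcl2, but below only knockdown replicate 2 for Trp53inp1 and that sum. Bid, a BH3-only gene activated by cleavage, stood at 30.6, 14.9 and 20.0 CPM and at 13.4, 11.2 and 11.2 CPM (-0.87, adjusted p = 0.328), also apart. Bok and Bcl2l13 had log2 fold changes of 1.21 (adjusted p = 0.397) and -0.25 (adjusted p = 0.328). Trp53bp1, a partner of p53 in break repair, stood at 15.8 ± 2.66 and 22.1 ± 3.41 CPM (0.48). Trp53i11 had a log2 fold change of 0.82. Ppp1r13b, an ASPP protein that binds p53, stood at 13.5 ± 0.853 and 9.76 ± 0.842 CPM (-0.47) and Trp53inp2 at 67.1 and 53.7 CPM (-0.32). The kinase inhibitors Cdkn2c, Cdkn2d and Cdkn1b had log2 fold changes of 0.36, -0.47 and -0.18, and Rbl2, a DREAM subunit, 5.67e-04.

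Of the remaining marker lists, summed CPM in wt and knockdown libraries was 3276 to 4947 and 1670 to 3069 for monocytes (6 of 6 lower in estimate), 1806 to 2020 and 795 to 1580 for neutrophils (7 of 7 lower), 217 to 373 and 241 to 343 for dendritic cells (6 of 8 lower), 6.26 to 36.1 and 11.8 to 58.0 for B cells (2 of 5 lower) and 29.7 to 37.2 and 28.2 to 30.9 for endothelium (2 of 5 lower). Immediate early and stress genes, which tissue dissociation can raise, summed to 12130 to 16250 and 8948 to 11570 CPM (8 of 12 lower).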
